A study of Mus musculus with 15 samples.

Results

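Protease inhibitor genes were followed in mouse endometrial organoids in which SMAD2/3 signaling was targeted by gene deletion, by a receptor inhibitor, or by both. The genes were chosen by symbol alone: every Serpin with a clade letter and number, Spink, Spint, Timp, Wfdc and Cst gene, without the Cstf cleavage factors. Of 120 such symbols in the mouse annotation, 65 are analysed here, out of 16729 genes in all. They comprise 38 Serpin, 11 Wfdc, 5 Spink, 5 Cst, 3 Spint and 3 Timp genes. Not all of their proteins leave the cell. The 11 clade B serpins and *Cstb* mostly act in the cytoplasm, *Serpinh1* stays in the endoplasmic reticulum, and *Spint1* and *Spint2* span the plasma membrane.

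RNA was sequenced from organoids of 4 groups, 15 samples in all. Smad2flox/flox; Smad3flox/flox mice gave the organoids named control + vehicle (n = 3) and control + A83-01 (n = 4). Mice with the same floxed alleles and Ltfcre/+ gave those named *Smad2/3* cKO, 4 samples grown in vehicle, and *Smad2/3* cKO + A83-01, another 4 grown with the inhibitor. The control mice thus carry the floxed alleles too. Vehicle was DMSO in both genotypes. A83-01 blocks the kinases of ALK4, ALK5 and ALK7, the receptors that phosphorylate SMAD2 and SMAD3. Cre was driven by the lactoferrin promoter, which is active in the uterine epithelium of the mouse, so deletion took place in the animal and cells that escaped it could still grow in culture. The mice of the study were adult unless it states otherwise.

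Secreted protease inhibitors set how long proteases in the uterine lumen and in the matrix stay active. Serpins trap serine proteases by offering them a bait loop and then changing shape, Kunitz (Spint), Kazal (Spink) and WAP (Wfdc) domains plug the active site of serine proteases, cystatins (Cst) do so for cysteine proteases such as cathepsins, and TIMPs for matrix metalloproteinases. The uterine epithelium is known for secreting many of them, several under steroid control.

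The promoters below belong to 5 genes described further on: 3 that passed for deletion of *Smad2* and *Smad3*, and a pair of gene copies whose levels differed between samples. Each runs from 250 bases before to 50 bases after the transcription start, 5′ to 3′ on the gene's strand, from RefSeq (GRCm38.p6). Capitals mark CAGAC on either strand (so also GTCTG), the core letters of the SMAD binding element, and TGANTCA. The latter leaves the middle base free, so it is looser than the AP-1 site, which has C or G there. In *Serpinb5* that base is A. *Serpinb5* lies at chr1:106860925-106861224 (+), *Wfdc18* at chr11:83708754-83709053 (+), *Serpina3n* at chr12:104406458-104406757 (+), *Serpina1a* at chr12:103863570-103863869 (−) and *Serpina1e* at chr12:103956848-103957147 (−).
Serpinb5: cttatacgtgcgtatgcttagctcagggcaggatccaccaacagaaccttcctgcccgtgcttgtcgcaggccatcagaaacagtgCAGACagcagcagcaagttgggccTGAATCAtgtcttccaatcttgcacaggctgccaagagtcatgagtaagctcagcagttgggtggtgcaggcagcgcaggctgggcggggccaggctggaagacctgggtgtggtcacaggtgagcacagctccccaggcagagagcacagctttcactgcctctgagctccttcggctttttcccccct
Wfdc18: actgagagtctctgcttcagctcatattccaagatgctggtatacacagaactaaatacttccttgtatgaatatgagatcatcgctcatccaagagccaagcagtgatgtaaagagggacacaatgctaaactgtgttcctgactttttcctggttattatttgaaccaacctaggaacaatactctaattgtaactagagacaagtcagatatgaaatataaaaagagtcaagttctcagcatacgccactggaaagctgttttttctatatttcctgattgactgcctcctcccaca
Serpina3n: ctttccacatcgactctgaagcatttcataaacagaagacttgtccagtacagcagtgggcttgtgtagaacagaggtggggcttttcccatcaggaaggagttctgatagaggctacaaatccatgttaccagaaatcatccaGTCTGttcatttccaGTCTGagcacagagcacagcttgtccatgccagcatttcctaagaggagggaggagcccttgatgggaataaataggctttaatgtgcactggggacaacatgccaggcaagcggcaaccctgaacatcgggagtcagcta
Serpina1a: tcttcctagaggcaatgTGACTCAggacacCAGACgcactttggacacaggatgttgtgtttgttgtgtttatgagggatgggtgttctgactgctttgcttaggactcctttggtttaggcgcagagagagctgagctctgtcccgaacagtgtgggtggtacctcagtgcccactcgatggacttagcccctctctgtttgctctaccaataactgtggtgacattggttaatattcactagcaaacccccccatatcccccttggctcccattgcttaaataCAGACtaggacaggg
Serpina1e: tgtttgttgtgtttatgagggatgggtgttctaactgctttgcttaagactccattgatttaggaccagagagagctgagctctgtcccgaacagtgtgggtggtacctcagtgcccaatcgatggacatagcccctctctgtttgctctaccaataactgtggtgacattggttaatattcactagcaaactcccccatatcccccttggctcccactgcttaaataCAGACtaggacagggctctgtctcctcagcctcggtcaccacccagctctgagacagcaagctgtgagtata
CAGAC occurred on either strand in 32 of 57 promoter windows of the 48 members with an entry (56.1%) and in 49.6% of 32851 mouse promoters of this length. TGANTCA occurred in 11 of the 57 windows (19.3%) and in 7.81% of all promoters. Matches of the 2 motifs may overlap at their ends. The windows of *Serpina1a* and *Serpina1e* overlap when aligned, and they were identical at 233 of the 243 positions that both hold (95.9%). Lack of a match, as in *Wfdc18*, says only that these letters are not in this window.

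The values are normalized counts: the reads estimated for a gene, scaled by a size factor for each sample. They summed to between 20241771 and 24423127 per sample. A gene was tested where its mean was at least 10 in the samples compared, and it passed at a limma adjusted p below 0.01 with a fold change above 1.4 or below 0.714. Adjusted p-values, given from limma throughout, cover all genes tested, and log2 fold changes are on the log2(normalized count + 1) scale with their standard error (SE). *Smad2* itself was 1171 ± 149 (SD, n = 3) in control + vehicle and 874.8 ± 43.8 (n = 4) in *Smad2/3* cKO organoids (log2 fold change −0.41, adjusted p = 0.0656), and *Smad3* was 1624 ± 107 and 1576 ± 334 (−0.07, adjusted p = 0.827). Counts per whole gene do not resolve the floxed exons, so they do not check the deletion. All 7 epithelial markers were high, with a summed level of 158678 to 201848 in control + vehicle and 109495 to 171417 with A83-01. In *Smad2/3* cKO organoids the sum was 87214 to 140904 without A83-01, below all control + vehicle samples, and 87876 to 125818 with it. The keratin genes Krt8 and Krt19 were among the markers that lay lower there, but not all 7 did. *Epcam* overlapped, at 21586 to 25386 in control + vehicle and 19889 to 26744 in *Smad2/3* cKO organoids without A83-01. For the same groups *Pax8* was 4560 to 5448 and 6791 to 9800.5, higher in the *Smad2/3* cKO organoids. The part of these shifts in the members' changes was not tested. By contrast, the 2 endothelial markers analysed summed to at most 27.6 and the 2 of smooth muscle to at most 16.8. The 6 stromal markers summed to 27.4 to 190.7 in control + vehicle and 4.79 to 54.7 with A83-01, and to 2.96 to 24.7 and 3.99 to 128.6 in *Smad2/3* cKO organoids without and with A83-01. Of the leukocyte markers, *Cd68*, a lysosomal protein also made outside leukocytes, was 1180 to 8115, and *Ptprc* (CD45) was 12.5 to 38.5 in control + vehicle and 68.5 to 513.5 in the other 3 groups. *Adgre1*, which marks macrophages, reached 350.8 in *Smad2/3* cKO replicate 2 and was at most 9.01 in each of the other 14 samples. The part of leukocyte RNA in the values given here was not tested. In bulk RNA, fewer cells of a type and less RNA per cell cannot be told apart.

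Per kilobase of merged exons, which evens out gene length only in part, 1 gene held about as much as all other members together. *Wfdc2* (HE4), a WAP protein of reproductive tract epithelium, stood at 30362 normalized counts per kb in control + vehicle, 50.47% of the members' sum. The next were *Cstb* at 6711, *Spint2* at 6030, *Spint1* at 4574, *Cst3* at 3263, *Serpina1e* at 2593 and *Spink8* at 2324 per kb. Among them, the *Serpina1e* mean does not describe its samples, as given further on. For *Spint2* the merged exons span 4556 bases, while its protein-coding transcripts hold only 1381 different stretches of 31 bases. Its value per kb, this order and the share of *Wfdc2* thus depend on the length used. Most of the other members were low: 41 of the 65 had a mean of at least 10 over all samples, and 12 a mean below 3.

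Deletion of *Smad2* and *Smad3* lowered 5 members and raised 2 in organoids without A83-01. Of 42 members tested, *Spink8*, *Spink12*, *Serpinb5*, *Serpina9* and *Serpinb6a* passed as lower (11.9%) and *Wfdc18* and *Serpina3n* as higher (4.76%), against 3.3% and 4.08% of all 13149 genes tested. At a limit of 0.05 on the adjusted p, 17 of the 42 passed in either direction, against 18.4% of all genes. The near-identical copies *Serpina1a* and *Serpina1c* count separately among the 17. The median log2 fold change was 0.23 over the members tested and 0 over all genes. A83-01 in control organoids gave fewer calls: of 38 members tested, 1 passed as lower (2.63%), *Spink12*, and 0 as higher, against 1.08% and 1.19% of 13009 genes. At an adjusted p below 0.05, 4 passed, against 7.34% of all genes, and 13 (34.2%) had an unadjusted p below 0.05, against 22.2% of all genes. The median was 0.29 over the members and −0.02 over all genes. The 3 control + vehicle samples serve in both comparisons, so the values of each are given side by side and are not 2 independent views.

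**Figure D1:**
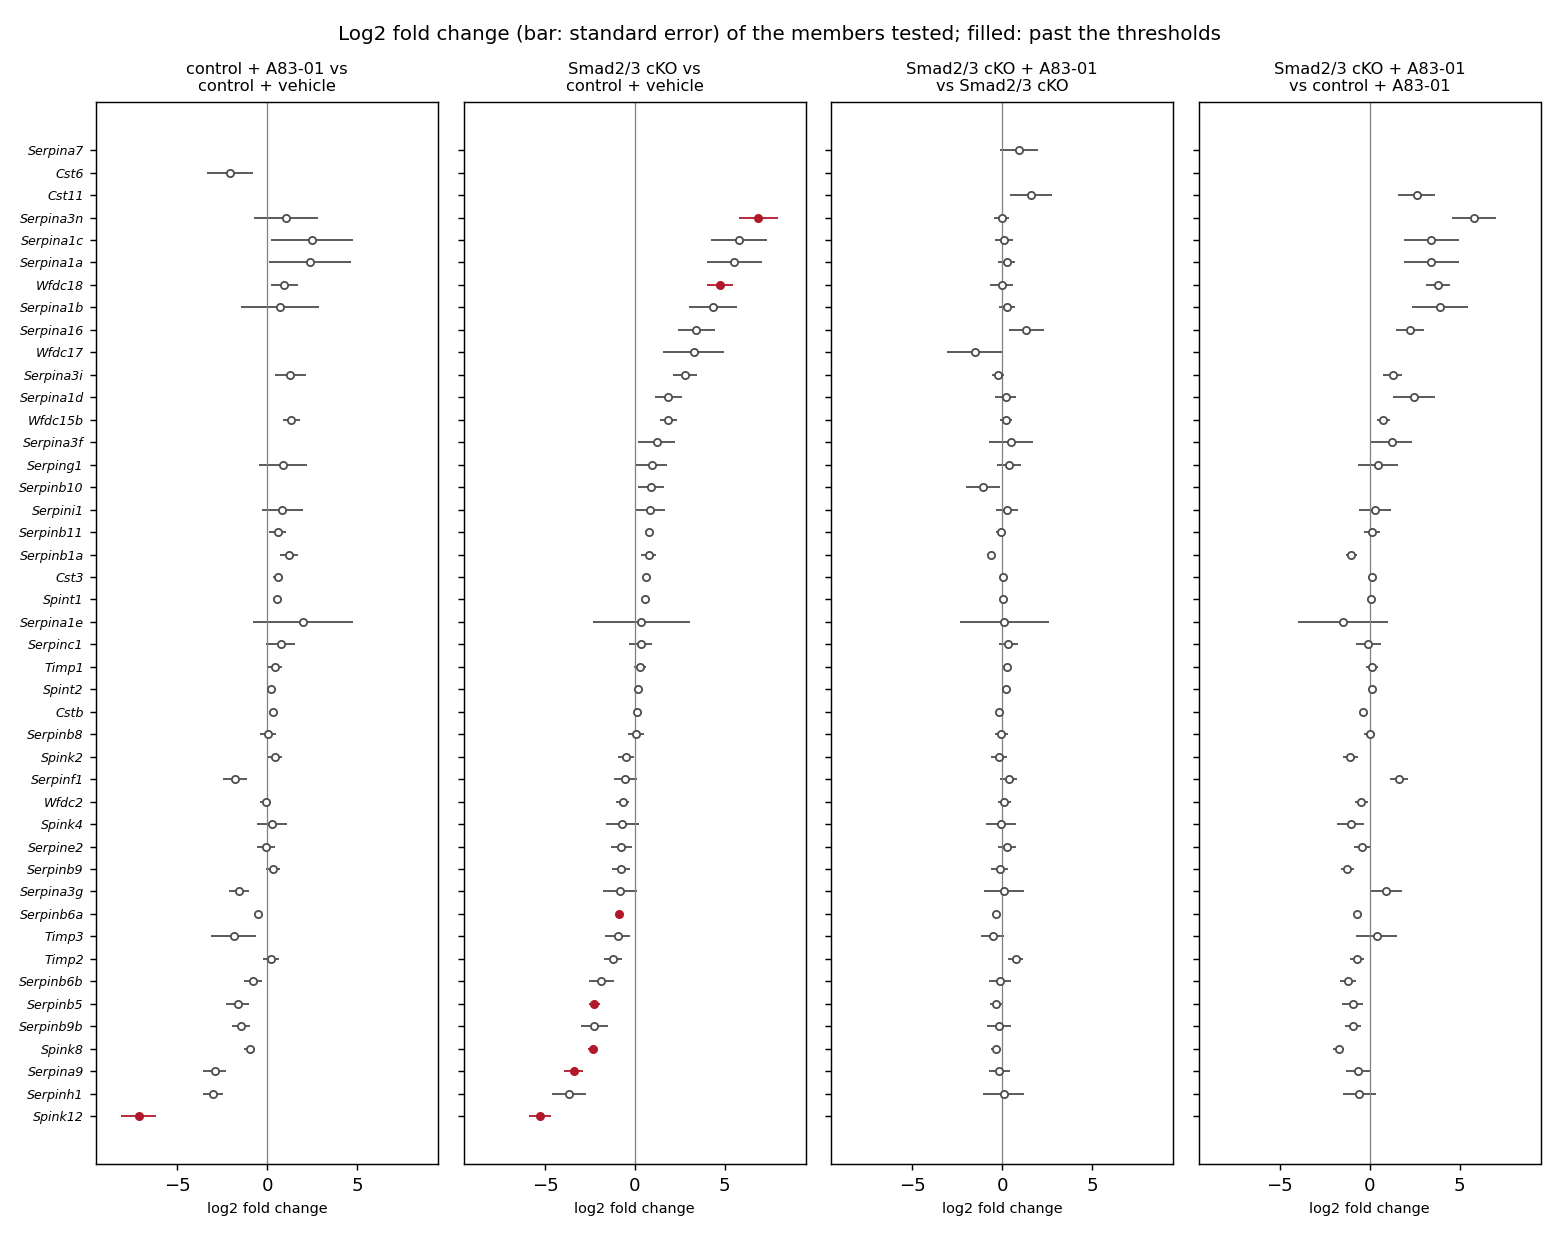
Log2 fold change of protease inhibitor genes tested in 4 comparisons (x axis, log2 scale; bars, SE), with genes ordered on the y axis by the change between *Smad2/3* cKO and control + vehicle. Filled red points mark genes past the thresholds, 1 in the leftmost panel, 7 in the next and 0 in the other 2.

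The 2 most abundant Kazal inhibitors were highest in control + vehicle organoids. *Spink12* was 336.7, 376.8 and 149.6 in control + vehicle, 0, 11.3, 0 and 0 in control + A83-01, 2.91, 15.1, 7.15 and 3.60 in *Smad2/3* cKO, and 1.11, 0, 0 and 0 in *Smad2/3* cKO + A83-01 organoids. Each control + vehicle sample thus lay above all 12 others, and with A83-01 the gene was at or near 0 in both genotypes. It fell by 7.16 on the log2 scale with A83-01 in control organoids (SE 0.97, adjusted p = 0.00403) and fell by 5.26 with deletion (SE 0.61, adjusted p = 0.000978). With values so near 0 the first fold change depends on the constant added before the logarithm, from −9.67 with 0.1 to −4.52 with 10. The first call was lost, with adjusted p from 0.0110 to 0.0326, without control + vehicle replicate 1, 2 or 3 or control + A83-01 replicate 3 or 4, while the second held without any 1 sample. *Spink8* was 2098, 1982 and 1643 in control + vehicle, and 235.1, 519.9, 461.2 and 339.1 in *Smad2/3* cKO organoids. The groups stood well apart, and the gene fell by 2.35 (SE 0.26, adjusted p = 0.000888), a call kept without any 1 sample. In control + A83-01 organoids it was 1497, 1033, 568.0 and 939.2, all below control + vehicle, without passing (log2 fold change −0.99, SE 0.29, adjusted p = 0.079). Of the other Kazal genes, *Spink2* (13.7 to 66.9 over all samples) and *Spink4* (2.15 to 98.7) passed in no comparison, *Spink10* was below the filter, and *Spink1* is not analysed here.

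**Figure D2:**
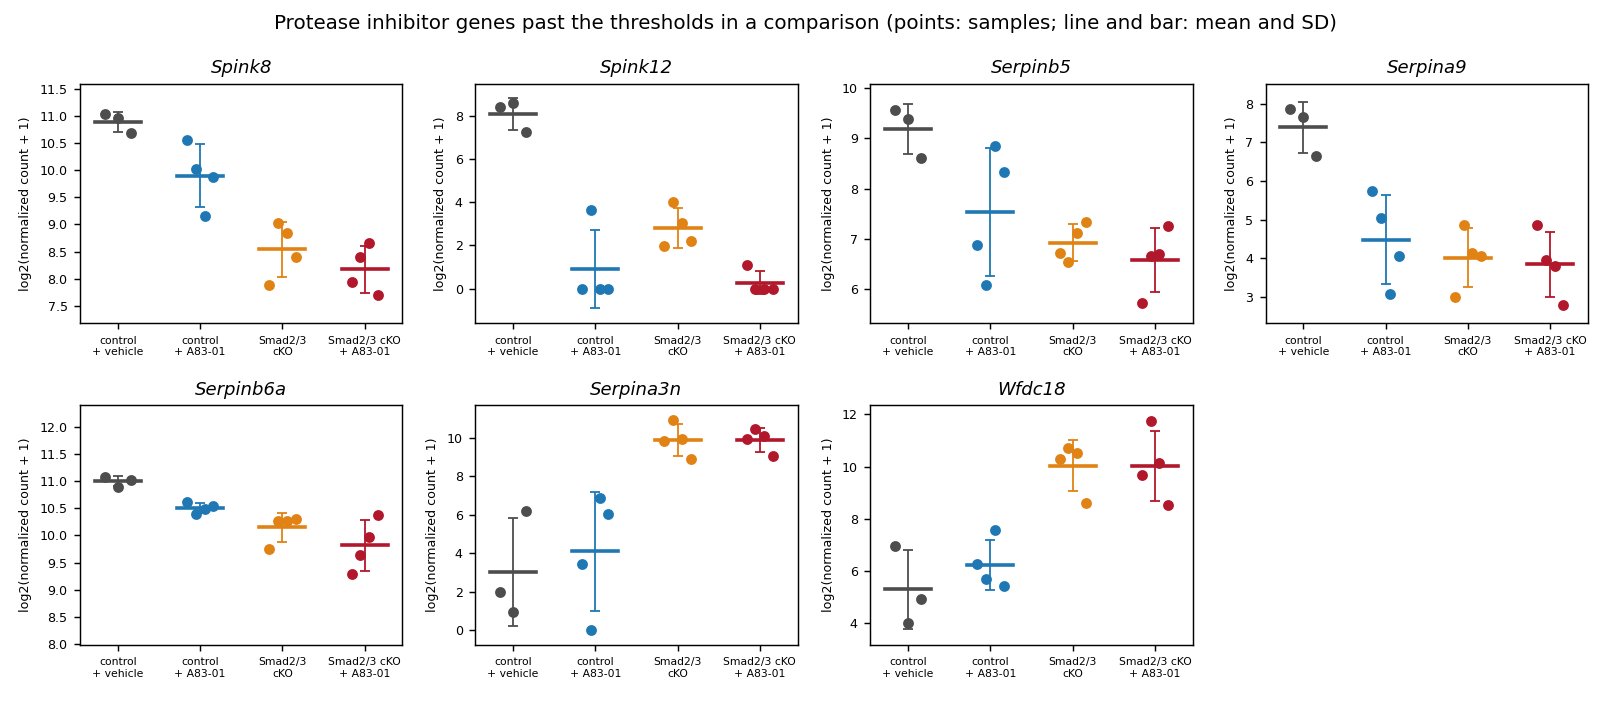
Log2(normalized count + 1) of the 7 protease inhibitor genes past the thresholds in a comparison (y axis) in the 4 groups (x axis); points are samples, lines means and bars SD, with n = 3 in control + vehicle and 4 elsewhere. Control + vehicle lies above both *Smad2/3* cKO groups for *Spink8*, *Spink12*, *Serpinb5*, *Serpina9* and *Serpinb6a*, and below them for *Serpina3n* and *Wfdc18*. The y axes do not all start at 0.

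Among clade B serpins, *Serpinb5* (maspin), a serpin without protease-trapping activity known as a tumor suppressor of breast epithelium, was 754.9, 663.5 and 390.7 in control + vehicle and 103.7, 92.3, 138.3 and 159.7 in *Smad2/3* cKO organoids. The lowest control sample was more than double the highest *Smad2/3* cKO sample. It fell by 2.26 (SE 0.30, adjusted p = 0.0018). The call was lost without control + vehicle replicate 1 (adjusted p = 0.0124) or 2 (0.0134). With A83-01 the control organoids did not move together: 116.2, 66.9, 459.9 and 322.3, so that replicates 1 and 2 were at 0.154 and 0.101 of the vehicle samples with which they share a number in the labels, and replicate 3 at 1.18 of its own. *Serpinb9b*, a relative of the granzyme B inhibitor *Serpinb9*, had the same order of ratios, 0.306, 0.176 and 0.933, and passed in neither comparison (adjusted p = 0.123 and 0.0647). Without control + vehicle replicate 3 it did pass for A83-01 (adjusted p = 0.00414). *Serpinb6a*, an inhibitor of cathepsin G, was 1907 to 2168 in control + vehicle and 1340 to 1560 with A83-01, and 860.4 to 1259 and 625.8 to 1323 in *Smad2/3* cKO organoids without and with A83-01. Its change with deletion was small, −0.85 (SE 0.16, adjusted p = 0.00799), in samples that did not overlap. That call was lost without any 1 of the 7 samples, with adjusted p from 0.0112 to 0.0373. *Serpinb1a*, *Serpinb8*, *Serpinb9*, *Serpinb11* and *Serpinb6b*, also tested, did not pass for deletion or for A83-01.

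Of the clade A serpins, *Serpina9*, named centerin for its expression in germinal center B cells, was 234.3, 202.6 and 98.7 in control + vehicle. In the other 3 groups it ran from 5.91 to 52.1. It fell by 3.39 with deletion (SE 0.53, adjusted p = 0.00368), a call lost without control + vehicle replicate 1 (adjusted p = 0.0232) or 2 (0.0224) or *Smad2/3* cKO replicate 4 (0.0108). With A83-01 in control organoids the change was −2.92 (SE 0.65, adjusted p = 0.0304, and 0.0114 with the label number as a block). It passed there with a covariate for whether the label number was under 390 (adjusted p = 0.00654) and with all 4 groups in the fit (0.00972). *Serpina3n*, an acute-phase serpin of the α1-antichymotrypsin family, moved the other way. It was 2.91, 0.899 and 73.3 in control + vehicle and 10.1, 0, 117.9 and 64.5 in control + A83-01, against 921.4, 1977, 979.8 and 484.1 in *Smad2/3* cKO and 978.8, 1434, 1098 and 530.6 in *Smad2/3* cKO + A83-01 organoids. Every *Smad2/3* cKO sample exceeded every control sample with or without A83-01. The change with deletion was 6.88 (SE 1.09, adjusted p = 0.00387). The call was lost without control + vehicle replicate 1 (adjusted p = 0.0215) or 2 (0.0162), or without *Smad2/3* cKO replicate 1 (0.0108) or 2 (0.0103), the sample with *Adgre1*. Under A83-01 the difference between genotypes was 5.80 (SE 1.24) without passing (adjusted p = 0.123). Of its 31-base words, 21.1% also occurred in transcripts of other protease inhibitor genes, so part of its reads could be assigned elsewhere.

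*Serpina1*, α1-antitrypsin, the main inhibitor of neutrophil elastase, has several near-identical copies in the mouse, and between 43.5% and 82.2% of the 31-base words of *Serpina1a* to *Serpina1e* occurred in another protease inhibitor gene. Which copy a read belongs to is thus uncertain. In these samples the copies did not follow the groups. *Serpina1e* was between 6200 and 18348 in control + vehicle replicates 1 and 2, in control + A83-01 replicates 1, 2 and 4, in *Smad2/3* cKO replicates 1 and 3 and in *Smad2/3* cKO + A83-01 replicates 2 and 3. In 5 samples it lay between 11.5 and 83.3, and in *Smad2/3* cKO replicate 4 it was 295.4. *Serpina1a* to *Serpina1d* together were 12.7 and 3.61 in control + vehicle replicates 1 and 2, 14.9 and 25.7 in control + A83-01 replicates 1 and 2, and 419.2 to 1903 in the other 11 samples. Samples of 1 genotype that share a number in the labels were alike. Replicate 3 of the 2 control groups had 11.5 and 22.7 of *Serpina1e*, and their replicates 1 and 2 had 6200 and above. *Smad2/3* cKO replicate 2 and *Smad2/3* cKO + A83-01 replicate 1, which also share a number, had 20.4 and 72.6. The sum of the 5 copies ran from 475.9 to 19012 and was high wherever *Serpina1e* was. The paper reports that its mice had a mixed genetic background. What sets this difference between samples, that background included, was not tested.

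Within the control samples of 1 label number, *Serpina1e* was higher with A83-01 in 3 of 3 pairs: 6367 against 17507 (ratio 2.75), 6200 against 12755 (2.06) and 11.5 against 22.7 (1.98). Without the pairing the spread between samples hid this (log2 fold change 1.99, SE 2.80, adjusted p = 0.740). With the label number as a block it passed, with a log2 fold change of 1.14 and adjusted p = 0.00686, on 3 pairs plus an unpaired sample. In the 1 *Smad2/3* cKO pair with a shared number, the ratio of 72.6 to 20.4 was 3.55. The sum of *Serpina1a* to *Serpina1e* in that pair was 1491 with A83-01 and 1486 without, and *Serpina1e* was 4.87% and 1.37% of it. In the third control pair *Serpina1e* was 2.16% and 2.41% of the sum, and *Serpina1a* to *Serpina1d* were 1027 with A83-01 and 464.4 without. The part of reads from other copies in *Serpina1e* in these pairs was not tested. Between *Smad2/3* cKO and control + vehicle, *Serpina1a*, *Serpina1b* and *Serpina1c* had log2 fold changes of 5.54, 4.34 and 5.79 without passing (adjusted p = 0.0333, 0.0521 and 0.0305). They passed without control + vehicle replicate 3 (adjusted p = 0.000177, 0.00438 and 8.07e-05), the 1 sample of that group with these copies. *Serpina3n*, too, was 64.5 to 117.9 in the 3 control samples with these copies and at most 10.1 in the 4 without. The part of the mixed genetic background in these levels, and in the *Serpina3n* call for deletion, was not tested.

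**Figure D3:**
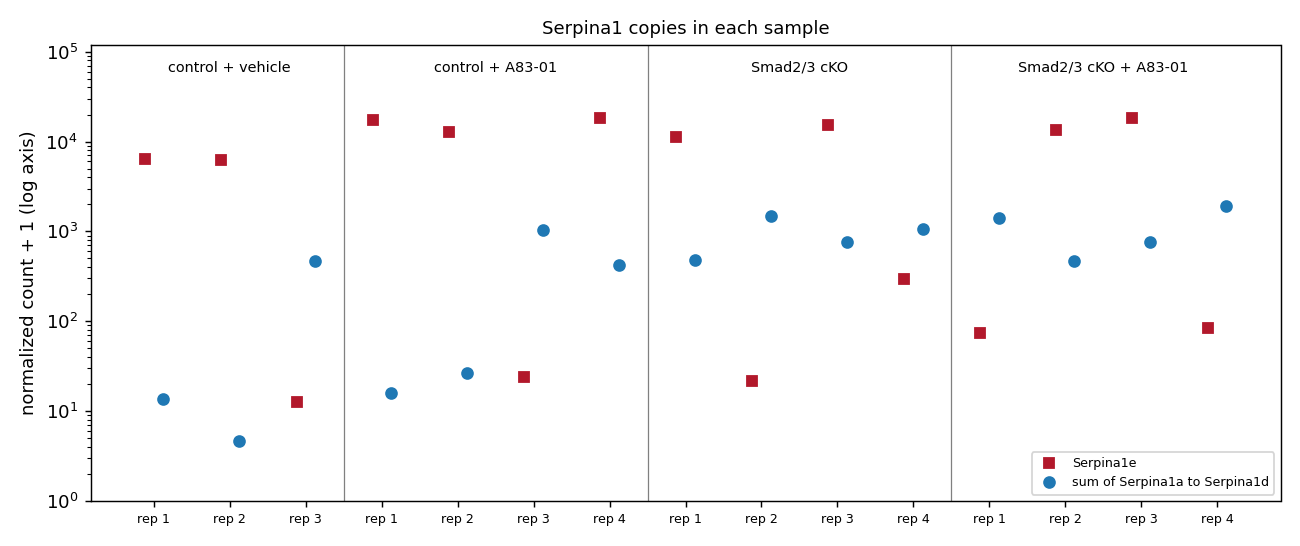
Normalized count + 1 (y axis, log scale) of *Serpina1e* (squares) and of *Serpina1a* to *Serpina1d* summed (circles) in each of the 15 samples (x axis, by group and replicate). *Serpina1e* is at 6200 or more in 9 samples and at 295.4 or less in 6, and the summed copies are at or under 25.7 only in replicates 1 and 2 of the 2 control groups.

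Of the WAP genes, *Wfdc18*, known as extracellular proteinase inhibitor (Expi) and first described in mammary epithelium, rose with deletion. It was 123.0, 14.9 and 29.2 in control + vehicle and 75.9, 50.6, 187.2 and 42.0 in control + A83-01. In *Smad2/3* cKO organoids it was 1254, 1668, 1487 and 391.4, and with A83-01 added 815.7, 3437, 1111 and 363.6. The genotypes did not overlap with or without the inhibitor, while the 2 control groups did. The change was 4.75 (SE 0.71, adjusted p = 0.003), a call lost without control + vehicle replicate 2 (adjusted p = 0.0139), and A83-01 in control organoids gave 0.95 (SE 0.76, adjusted p = 0.526). *Wfdc15b* was 32.5 to 97.1 in control + vehicle and 89.1 to 375.5 in the other groups, and passed in neither comparison (adjusted p = 0.0255 for deletion and 0.136 for A83-01). *Wfdc2* was 26635 to 44617 in control + vehicle and 18402 to 43638 with A83-01, and 11598 to 36355 and 12112 to 30738 in *Smad2/3* cKO organoids without and with A83-01. The groups overlapped, and its change with deletion was −0.68 (95% confidence interval −1.47 to 0.11, adjusted p = 0.211). *Wfdc8* was 19.0, 34.0 and 8.04 in control + vehicle, at 0 in 11 other samples and 1.44 in the remaining one. Its mean was below 10 in the samples compared, so it was tested only where the filter was dropped. *Wfdc17* was at 0 in all 7 control samples and 272.3 in *Smad2/3* cKO replicate 2, the sample with *Adgre1* at 350.8, and at most 13.1 elsewhere. The part of macrophage RNA in that value was not tested.

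*Spint1*, *Spint2*, *Cst3* and *Cstb* were high in every group, and no Spint or Cst gene passed in any comparison. *Spint1* (HAI-1), which restrains matriptase and the activator of hepatocyte growth factor, was 12349 to 13262 in control + vehicle. It was 14282 to 24704 after A83-01 and 15369 to 21758 after deletion. All of these samples lay above the 3 controls, by 0.54 with A83-01 (SE 0.20, adjusted p = 0.15) and 0.58 with deletion (SE 0.16, adjusted p = 0.0333), and neither passed. For *Spint2* (HAI-2) the same changes were 0.22 (95% confidence interval −0.31 to 0.76) and 0.18 (−0.19 to 0.54). *Cst3* (cystatin C), the main secreted cystatin, was 4131 ± 1087 (SD, n = 3) in control + vehicle and 6384 ± 759 (n = 4) in *Smad2/3* cKO organoids, a change of 0.65 (SE 0.19, adjusted p = 0.0411). *Cstb* (cystatin B), which guards the cytosol against leaked cathepsins, was 4047 ± 879 and 4414 ± 624 (0.14, 95% confidence interval −0.26 to 0.53). *Cst6* was low, 10.8 to 40.1 in control + vehicle and 0 to 28.9 elsewhere.

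The TIMPs did not pass in any comparison. *Timp1* was 296.3 to 722.4 in control + vehicle and 303.5 to 946.5 in the other groups. *Timp2* spread widely between samples, from 1040 to 3880 in control + vehicle and from 1875 to 4369 with A83-01, and from 556.5 to 1831 and 725.5 to 2414 in *Smad2/3* cKO organoids without and with A83-01. Its change with deletion was −1.22 (95% confidence interval −2.35 to −0.08, adjusted p = 0.124). *Timp3* was at most 76.5 in any sample, and *Timp4* is not analysed here.

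*Serpinh1* had its highest values in control + vehicle, though neither comparison reached the limit of 0.01. *Serpinh1* (HSP47), a chaperone of collagen and not a protease inhibitor, was 899.4, 1234 and 564.5 in control + vehicle, against 231.8, 108.6, 125.5 and 39.0 in control + A83-01 and 281.9, 9.49, 152.2 and 45.5 in *Smad2/3* cKO organoids. The change was −3.01 with A83-01 (SE 0.54, adjusted p = 0.0137) and −3.66 with deletion (SE 0.96, adjusted p = 0.0291). With the label number as a block the first passed (−2.53, adjusted p = 0.00652), so that 3 members passed for A83-01 in control organoids in that fit and not 1. Of the 6 stromal markers, whose summed levels are given above, *Col1a2* was 42.2, 70.5 and 11.4 in control + vehicle and at most 19.9 elsewhere. Pdgfra did not follow *Serpinh1*, at 11.9 to 21.4 in control + vehicle and 4.79 to 54.7 with A83-01. In *Smad2/3* cKO + A83-01 replicate 1 the sum was 128.6 and *Serpinh1* was 9.82. The part of stromal RNA in *Serpinh1* was not tested. *Serpinf1* (PEDF) was 68.0 to 339.1 in control + vehicle and 24.8 to 105.2 in control + A83-01 (−1.80, SE 0.68, adjusted p = 0.158). *Serpine2*, an inhibitor of thrombin, and *Serping1*, the inhibitor of complement C1, ran from 32.9 to 256.3 and from 5.72 to 416.1 over all samples, and neither passed.

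**Figure D4:**
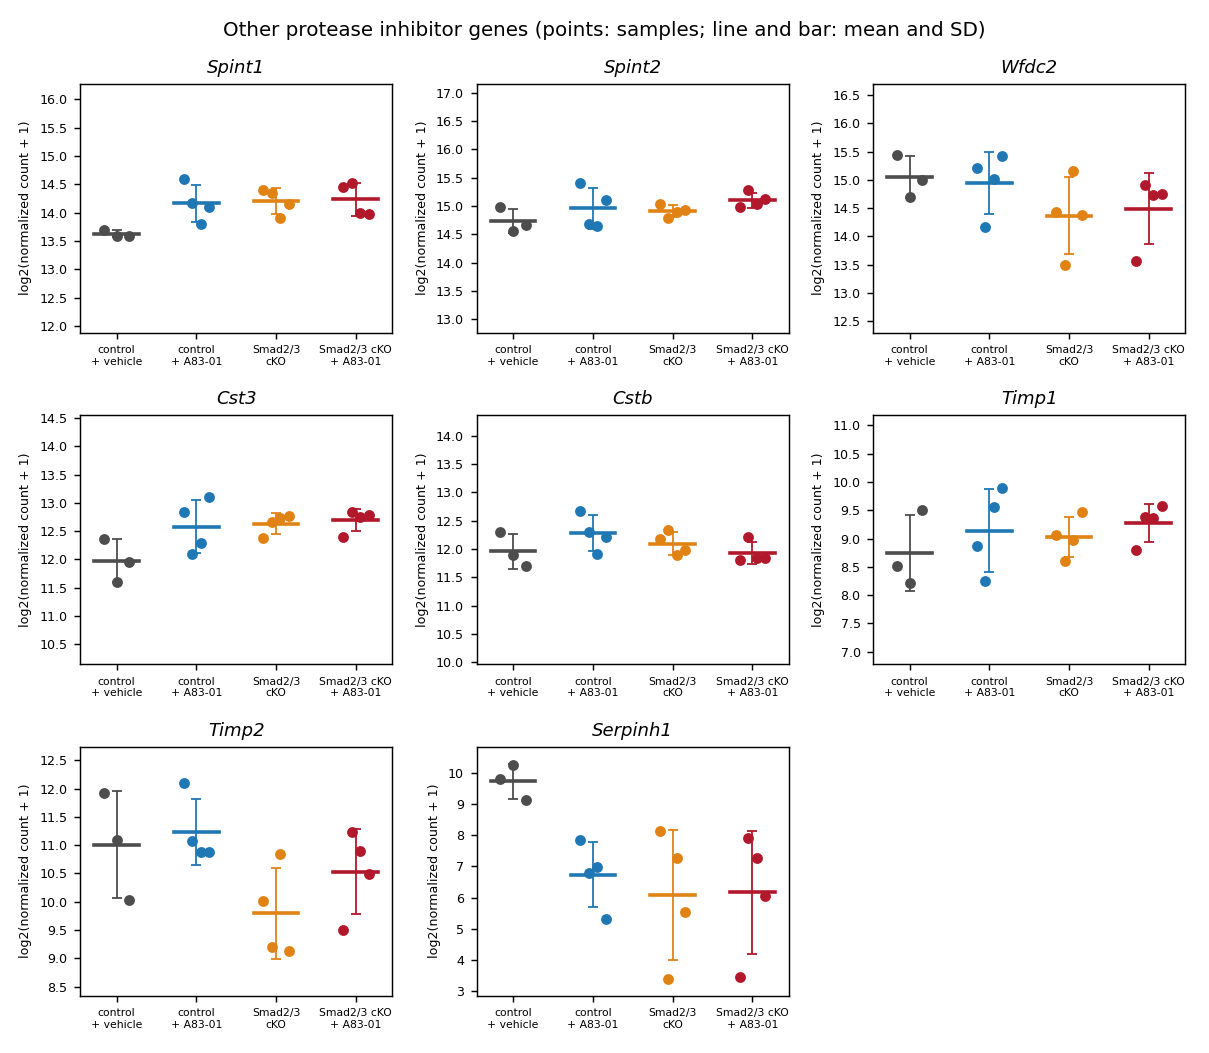
Log2(normalized count + 1) of 8 protease inhibitor genes (y axis) in the 4 groups (x axis); points are samples, lines means and bars SD, with n = 3 in control + vehicle and 4 elsewhere. *Spint1*, *Spint2*, *Cst3* and *Cstb* stay within narrow ranges, whereas *Serpinh1* is highest in the 3 control + vehicle samples. The y axes do not all start at 0.

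A83-01 added to *Smad2/3* cKO organoids changed 0 of 42 members past the thresholds in limma, against 0% of 12998 genes as higher and 0% as lower. At an unadjusted p below 0.05 there was 1 member, *Serpinb1a* (−0.61, SE 0.21, adjusted p = 0.994), against 4.26% of all genes. The intervals differ in what they allow. For *Spint1* (95% confidence interval −0.36 to 0.42), *Spint2* (−0.10 to 0.47), *Cst3* (−0.24 to 0.37) and *Cstb* (−0.48 to 0.14) they leave out a change of 1.4-fold in either direction. Those of *Serpinh1* (−2.47 to 2.63) and *Serpina1e* (−5.36 to 5.59) are far wider. The fit is unpaired, so the spread between samples enters them. Matched by correlation as given further on, *Smad2/3* cKO replicates 1 to 4 had 281.9, 9.49, 152.2 and 45.5 of *Serpinh1*. Their A83-01 partners, replicates 2, 1, 3 and 4, had 240.6, 9.82, 152.9 and 64.7. For *Serpina1e* the values were 11168, 20.4, 15395 and 295.4 against 13302, 72.6, 18254.5 and 83.3. A fit with these pairs was not run. *Spink12*, which was between 2.91 and 15.1 in *Smad2/3* cKO organoids, had too low a mean to be tested there.

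Between genotypes under A83-01, 0 of 39 members passed in limma, against 0.0232% of 12915 genes as higher and 0% as lower. At an unadjusted p below 0.05 there were 15 members (38.5%), against 9.52% of all genes. The near-identical copies *Serpina1a*, *Serpina1b* and *Serpina1c* count separately among the 15. The 3 members with the lowest p were genes that also passed for deletion without the inhibitor: *Wfdc18* (3.78, SE 0.66, adjusted p = 0.0927), *Spink8* (−1.72, SE 0.31, adjusted p = 0.0927) and *Serpina3n* (5.80). For *Spink8* the *Smad2/3* cKO + A83-01 samples were 207.7 to 401.7 and the control + A83-01 samples 568.0 to 1497, so the groups did not overlap. *Serpina9* and *Serpinb5*, by contrast, overlapped between genotypes under A83-01 (−0.63, 95% confidence interval −2.16 to 0.89, and −0.95, −2.27 to 0.36).

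Whether A83-01 acted differently in the 2 genotypes was tested in 1 fit of all 15 samples. Of 41 members, 0 passed in limma in either direction, against 0.0995% of 13066 genes as higher and 0.452% as lower, and 5 had an unadjusted p below 0.05, against 14.3% of all genes. The lowest p was that of *Spink12*, whose fall with A83-01 was 4.63 smaller on the log2 scale in *Smad2/3* cKO organoids (SE 1.21, adjusted p = 0.0786), which start near 0. Without control + A83-01 replicate 2, the 1 sample of its group with a value above 0, it passed (adjusted p = 0.00802). *Serpina9* (2.75, SE 0.90, adjusted p = 0.154) and *Serpinb1a* (−1.80, SE 0.55, adjusted p = 0.125) did not pass.

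Protease inhibitors outside these symbols were few among the genes tested. Of 36 listed, 22 were in the analysis and 10 or 11 were tested in each comparison. *Itih5*, an inter-α-trypsin inhibitor heavy chain that binds hyaluronan, was 5.33 to 14.4 in control + vehicle and 120.6 or more in all 12 other samples. It rose by 4.97 with A83-01 (SE 0.60, adjusted p = 0.00229) and by 5.66 with deletion (SE 0.44, adjusted p = 0.000178), and its A83-01 effect differed between genotypes (−4.80, SE 0.73, adjusted p = 0.00292). *Kng1* (kininogen), which carries cystatin domains, was 322.0 to 682.0 in control + vehicle and 2215 to 6468 in *Smad2/3* cKO organoids (2.78, SE 0.40, adjusted p = 0.00249). In control + A83-01 it was 1136 to 2623, also above control + vehicle, without passing.

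The proteases that these inhibitors act on changed in both directions. Of 56 listed, 49 were in the analysis. The list was drawn up with earlier results of these data known, so its shares stand beside those of all genes without being a test. With A83-01 in control organoids 4 of 41 tested passed as higher (9.76%) and 2 as lower (4.88%), against 1.19% and 1.08% of all genes. With deletion 8 of 42 passed as higher (19.0%) and 5 as lower (11.9%), against 4.08% and 3.3%, while 0 passed for A83-01 in *Smad2/3* cKO organoids, 0 between genotypes under A83-01 and 0 in the test of the difference. The cysteine protease *Ctsb* (cathepsin B), a target of cystatins, was 103482 ± 25605 (SD, n = 3) in control + vehicle, 536121 ± 145852 (n = 4) in control + A83-01 and 612862 ± 35419 (n = 4) in *Smad2/3* cKO organoids. It rose by 2.36 (SE 0.34, adjusted p = 0.00498) and 2.59 (SE 0.31, adjusted p = 0.00105). *Ctsz* rose by 1.61 and 1.58 and the legumain gene *Lgmn* by 1.03 with deletion, whereas *Ctsh* fell by 1.41 with deletion. Of the matrix metalloproteinases, which TIMPs inhibit, *Mmp7* fell by 3.16 with deletion (SE 0.52, adjusted p = 0.00432), from 9397 to 27559 in control + vehicle to 963.2 to 4469 in *Smad2/3* cKO organoids. *Mmp11* fell by 2.73 with A83-01 and 3.47 with deletion and *Mmp14* by 1.69 with deletion, while *Mmp15* rose by 4.05 with deletion. Among serine proteases, *Prss22* fell by 1.82 with A83-01 and 2.78 with deletion, and *Prtn3* rose by 4.03 and 4.43. *Prss29* (implantation serine proteinase 2) was at 0 in all 3 control + vehicle samples but between 16.3 and 321.8 with A83-01 and between 188.1 and 6403 after deletion, and passed in both comparisons. The kallikrein *Klk1* was 14.5 to 66.1 in control + vehicle and rose by 5.20 with deletion (SE 0.86, adjusted p = 0.00438). Several genes that passed for deletion only also lay apart from control + vehicle with A83-01. *Klk1* was 314.1 to 4766 in control + A83-01, *Mmp15* 530.1 to 1735 against 66.3 to 278.9, and *Mmp7* 605.4 to 7638. *Mmp14* was 1207 to 2475.5 against 3402 to 4659, whereas *Ctsh* overlapped, at 4176 to 9476 against 7181 to 11363.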

How the data were processed

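Organoids grown from uterine epithelium in Matrigel were sequenced after cDNA synthesis with an ultra-low input kit. The signal that the authors deposited is an estimated count per gene from Salmon 1.4.0 on GRCm39, divided by the size factor of DESeq2 1.32.0 for the sample, so that values compare between samples but not between genes. Only 6.1% to 13.2% of low values were whole multiples of the smallest step, which did not allow reads to be recovered and tests for raw counts were not used. A rough depth from that step was 18.4 to 23.3 M reads, and 43.3 M in *Smad2/3* cKO + A83-01 replicate 3. Whole fractions of a step match at least as well as the step itself, so these depths are uncertain, above all the last.

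Of the 16729 genes, those whose mean over the compared samples was 10 or more were kept. They were fitted with limma 3.58.1 (lmFit, eBayes with trend) in R 4.3.3 on log2(normalized count + 1), with Benjamini-Hochberg adjustment over all genes kept. A comparison of 2 groups used their samples only, and the difference between genotypes in 1 fit of all 15. The method was tested on simulated data. Symbols, positions and merged exon lengths are from a GRCm38 annotation, promoters from RefSeq. Transcripts of protease inhibitor genes were compared by 31-base words.

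Members and lists were chosen with earlier results of these data known. Genes named are members past the thresholds, a written set of well-known members and the highest of each family. *Serpinb9b*, *Serpinb1a*, *Wfdc15b*, *Wfdc8*, *Wfdc17* and the *Serpina1* copies other than *Serpina1e*, among others, were named after their values were seen. Counts cover all members, of which 1 is not reported here by name.

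Replicates 1, 2 and 3 of control + vehicle and of control + A83-01 share numbers in the labels. Their deviations from the group means correlated within numbers (r = 0.354 to 0.423 over genes) against a mean of −0.133 between numbers, where 1 pair, control + vehicle replicate 3 and control + A83-01 replicate 4, also reached 0.348. The number was also used as a block there. The extract protocol in the labels speaks of different mice, and the number of control replicate 1 also occurs in *Smad2/3* cKO replicate 1. Other alternatives were pseudocounts of 0.1 and 10, no filter or a mean of 50, quantile normalization, an adjusted p below 0.05, a single fit of all 4 groups, eBayes without trend, leaving out each sample, and a covariate for the number series (label numbers under 390 against the rest). The label number as a block and the sum of the *Serpina1* copies were added after the data were seen.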

Additional observations from a re-analysis of the deposited data

Results flagged for a closer look

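In groups of 4, a sample far from the other 3 was looked for in 25 named members, and 7 of 69 combinations of gene and group had one, where chance gives about 1 in 20. *Serpina1e* was 22.7 in control + A83-01 replicate 3 and 12755 to 18348 in the other 3. *Serpinb6a* was 860.4 in *Smad2/3* cKO replicate 1 and 1234 to 1259 in the others. *Wfdc2* was 12112 in *Smad2/3* cKO + A83-01 replicate 1 and 27336 to 30738 in the others. *Timp2* was 4369 in control + A83-01 replicate 1 and 1875 to 2152 in the others. *Serpinf1* was 105.2 in control + A83-01 replicate 1 against 24.8 to 28.7, and 36.1 in *Smad2/3* cKO replicate 4 against 117.3 to 141.3. *Cstb* was 4765 in *Smad2/3* cKO + A83-01 replicate 2 against 3576 to 3688.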

How the results depend on the processing

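For A83-01 in control organoids, 1 member passed, and 0 to 2 did when each sample was left out in turn. The count was 4 at an adjusted p below 0.05, 0 with a pseudocount of 0.1, 2 without a filter (*Spink12* and *Wfdc8*), 3 with the replicate block, which here is also the label number (*Spink12*, *Serpinh1* and *Serpina1e*), 3 with the number series as a covariate (*Serpina9*, *Spink12* and *Serpinh1*) and 2 with all 4 groups in the fit (*Serpina9* and *Spink12*). For deletion without A83-01, 7 members passed, and 2 to 9 did when each sample was left out, with 2 without control + vehicle replicate 2 and 3 without replicate 1. It was 17 at an adjusted p below 0.05, 4 with eBayes without trend, and 1, *Wfdc18*, with the replicate block, where numbers do not pair the samples (mean r = 0.0565). For deletion under A83-01 the count of 0 became 2 (*Serpina3n* and *Serpina1b*) with the number series as a covariate. For the difference between genotypes it became 1 with a pseudocount of 10 (*Spink12*) and 1 without a filter (*Wfdc8*), and was 0 to 1 when each sample was left out. For A83-01 in *Smad2/3* cKO organoids it was 0 under every alternative run. There, replicate numbers matched the samples only in part (mean r = 0.13, from −0.166 to 0.375). Replicates 3 and 4 correlated with the A83-01 samples of the same replicate number (r = 0.374 and 0.375). Replicate 1 did so with A83-01 replicate 2 (0.394), and replicate 2 with A83-01 replicate 1 (0.355), with which it shares a label number. A fit with these pairs was not run. The cause of the shifts in these counts was not tested. Of 129 alternative values for the 8 changes past the thresholds, 96 stayed past them, 33 did not and 0 turned direction. With 3 control + vehicle samples, and levels near 0 in several groups, precision is set by the spread between samples.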
